A study of Mus musculus with 2 samples.

Results

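The VEGF family consists of secreted ligands and the receptors that bind them. Transcripts of 9 of its genes were examined in stromal vascular fraction (SVF) cells of gonadal white adipose tissue (gWAT). The ligands were Vegfa, Vegfb, Vegfc and Pgf (placental growth factor), the receptor tyrosine kinases were Flt1 (VEGFR1), Kdr (VEGFR2) and Flt4 (VEGFR3), and the co-receptors were Nrp1 and Nrp2. These 9 of the 28692 genes in the count matrices were chosen by name, and the family was singled out after a low Pgf level had been seen in KO fibroblasts, so that the Pgf difference in these cells is a description of the library pair and not an independent finding. All 9 genes were detected in both libraries.

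VEGF-A signals in endothelial cells mainly through VEGFR2, and VEGFR1 binds it tightly and acts partly as a decoy. PlGF and VEGF-B bind VEGFR1 and not VEGFR2. VEGF-C binds VEGFR3, the main receptor of lymphatic endothelium, and after processing VEGFR2 as well, and neuropilins assist the binding of several of these ligands. In white adipose tissue, capillary density is known to depend on VEGF-A, of which mature adipocytes are a major source. SVF preparations largely lack these floating, lipid-filled cells.

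One library came from littermate controls and 1 from Adipo-Pgam1 KO animals, in which Cre under the Adiponectin promoter excises floxed Pgam1, which encodes a glycolytic enzyme. All were males of the C57BL/6 strain, 13 weeks old by the labels. By the methods of the study, controls carry Pgam1 flox/flox alleles without Adipoq-Cre, whereas the labels call them littermate wildtype. The number of mice behind each library is not given in the sources used here. The control library held 8522 barcodes with 42859406 UMIs in total, and the KO library 2730 barcodes with 13821581 UMIs. Cells with fewer than 500 genes or with over 10% of UMIs from mitochondrial genes were set aside, which left 3881 control and 958 KO cells. Putative doublets were then removed, and 3616 and 937 cells remained, with a median of 6898 and 7494 UMIs per cell. No barcode was shared between the libraries among cells that passed the filters.

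Levels are UMIs summed over the cells of a class and given per 1000000 UMIs of that class (CPM), and ratios are KO to control on the log2 scale. With 1 library per genotype no test between genotypes was possible. The intervals are exact 95% intervals that cover counting error only, treat UMIs as independent although those of 1 cell share a source, and do not include the spread between mice. A ratio against 0 UMIs was taken against a floor of 3 UMIs per library and is an upper bound. No ratio is given where both libraries held at most 3 UMIs.

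Pgam1 itself was counted first, as the gene whose loss defines the KO. In cells passing the filters it was at 110 CPM in the control library (3633 UMIs) and 117 CPM in the KO library (1137 UMIs), and the log2 ratio was 0.09 (−0.00 to 0.19). With all barcodes included it was at 99.3 and 91.5 CPM (−0.12, −0.21 to −0.03). In fibroblast-like cells it was at 108 and 107 CPM (−0.01, −0.20 to 0.16), and in each of 6 sub-clusters of them the interval included 0, with ratios from −0.47 to 0.35. In the counts used here the genotypes therefore rest on the labels. The study itself reports markedly less Pgam1 in KO cells of a fibroblast cluster that it proposes to be preadipocytes. It also reports reduced Pgam1 in gWAT by PCR and western blot.

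Cells fell into 25 clusters, of which 18 matched 13 cell classes by marker genes. The member genes were not used for clustering. Of 12 classes with at least 30 control cells, those that turn up most below were fibroblast-like cells (900 control and 238 KO cells, with Dcn at 24609.8 CPM in the control), blood endothelial-like cells (151 and 60, Cdh5 at 1335 CPM), lymphatic endothelial-like cells (56 and 12, Prox1 at 1084 CPM), pericyte or smooth muscle-like cells (218 and 21, Rgs5 at 8401.1 CPM), mesothelial-like cells (106 and 20, Upk3b at 2774.1 CPM) and macrophage-like cells (650 and 95, C1qa at 2043.9 CPM). The remaining 417 control and 151 KO cells lay in 7 unnamed clusters.

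The promoters of 4 members are shown because the results turn on these genes. Pgf (chromosome 12, positions 85166635 to 85177790, minus strand) and Vegfc (chromosome 8, 54077606 to 54187096, plus strand) are ligands with opposite differences in fibroblast-like cells. Flt1 (chromosome 5, 147561604 to 147726011, minus strand) and Kdr (chromosome 5, 75932827 to 75978458, minus strand) are receptors found in blood endothelial-like cells. Kdr was also high in lymphatic endothelial-like cells. Coordinates are of GRCm38, from GENCODE, and the annotated transcripts of the 4 genes have up to 7, 7, 30 and 30 exons. Each sequence holds the 250 bases before the most upstream RefSeq start in GRCm38.p6, 5′ to 3′ on the strand of the gene, at chr12:85177314-85177563, chr8:54077282-54077531, chr5:147726012-147726261 and chr5:75978456-75978705. Capitals mark matches to the GC box GGGCGG, the ETS core GGAAG and the ACGTG form of the hypoxia core, each searched on both strands.
Pgf: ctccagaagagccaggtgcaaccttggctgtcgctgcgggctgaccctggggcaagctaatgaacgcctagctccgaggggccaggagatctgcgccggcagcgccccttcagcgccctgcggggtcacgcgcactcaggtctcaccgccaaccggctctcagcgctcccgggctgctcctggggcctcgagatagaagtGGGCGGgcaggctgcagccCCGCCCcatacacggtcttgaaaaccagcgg
Vegfc: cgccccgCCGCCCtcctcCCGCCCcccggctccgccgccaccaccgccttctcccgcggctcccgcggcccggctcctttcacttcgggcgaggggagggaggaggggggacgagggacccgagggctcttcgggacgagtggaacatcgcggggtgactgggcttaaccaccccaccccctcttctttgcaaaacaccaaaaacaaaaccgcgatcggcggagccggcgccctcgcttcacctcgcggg
Flt1: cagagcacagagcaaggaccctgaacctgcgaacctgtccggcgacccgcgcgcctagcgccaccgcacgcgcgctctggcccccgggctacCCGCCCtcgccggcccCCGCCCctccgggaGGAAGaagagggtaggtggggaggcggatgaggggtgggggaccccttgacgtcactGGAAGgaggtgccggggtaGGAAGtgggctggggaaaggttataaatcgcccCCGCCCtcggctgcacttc
Kdr: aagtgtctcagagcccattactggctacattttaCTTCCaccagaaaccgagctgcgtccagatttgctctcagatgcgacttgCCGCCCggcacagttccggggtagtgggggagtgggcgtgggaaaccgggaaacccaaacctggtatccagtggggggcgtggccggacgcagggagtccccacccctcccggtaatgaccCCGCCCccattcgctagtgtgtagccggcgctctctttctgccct
Each of the 4 windows held the GC box, with 2 matches in Pgf, 2 in Vegfc, 3 in Flt1 and 2 in Kdr, whereas 32.7% of all 32851 promoter windows of this length held at least 1. The ETS core, a motif common in endothelial promoters, was matched 3 times in Flt1 and once in Kdr and was not found in the other pair of windows. It was present in 64.1% of all windows, so that its presence sets no gene apart. The ACGTG form of the hypoxia core stood in none of the 4 windows and in 16.6% of all windows. Its GCGTG form was not searched for and is not marked, so nothing is read about hypoxia sites in general. These are matches of letters, not shown to be bound.

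In the control library, Flt1 and Flt4 were each concentrated in 1 of the 12 classes, while the ligands and neuropilins were spread over several, as the plot of levels by cell class shows. Flt1 was at 1528.5 CPM in blood endothelial-like cells (1193 UMIs) and 18.2-fold lower in the next class, pericyte or smooth muscle-like cells, at 84 CPM, which was not told apart from monocyte-like cells at 69.1 CPM. Flt4 was at 1617.4 CPM in lymphatic endothelial-like cells and at 60.2 CPM in blood endothelial-like cells, a 26.9-fold step. Among whole classes Kdr was also highest in lymphatic endothelial-like cells, at 1072.5 CPM, ahead of 569 CPM in blood endothelial-like cells. The latter class mixes vessel types, and its capillary-like cells were at 1066.6 CPM (931 to 1216.5). Mesothelial-like cells, which line the outer surface of the fat pad, came next at 115 CPM (162 UMIs), 12.2-fold above fibroblast-like cells at 9.48 CPM. Pericyte or smooth muscle-like cells held 0 Kdr UMIs.

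**Figure D1:**
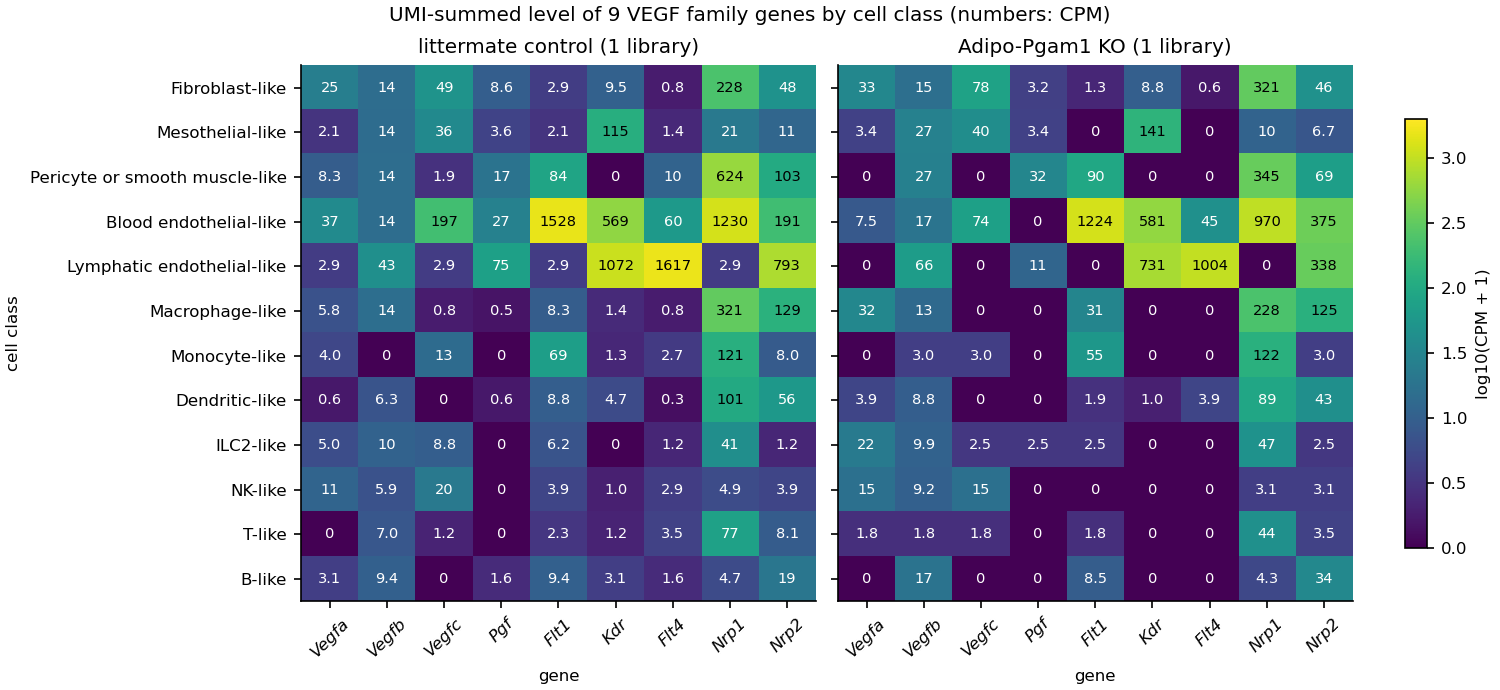
Level of each of the 9 genes (columns) in 12 cell classes (rows) of the control library (left) and the KO library (right). Numbers are CPM over all UMIs of the class, colour is log10(CPM + 1), and Flt1 and Flt4 stand out in blood and lymphatic endothelial-like cells at 1528.5 and 1617.4 CPM in the control.

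Nrp1 was broad in the control library. It was at 1230 CPM in blood endothelial-like cells, 624 CPM in pericyte or smooth muscle-like cells, 321 CPM in macrophage-like cells and 228 CPM in fibroblast-like cells, and each of these steps was beyond counting error. Lymphatic endothelial-like cells held 1 Nrp1 UMI. Nrp2, the neuropilin that is the usual partner of VEGFR3, showed the reverse order in endothelium, with 793 CPM in lymphatic and 191 CPM in blood endothelial-like cells, followed by macrophage-like cells at 129 CPM.

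Of the ligands, Vegfc had its highest control level in blood endothelial-like cells, at 197 CPM, ahead of fibroblast-like cells at 48.8 CPM and mesothelial-like cells at 36.3 CPM, but fibroblast-like cells, being more numerous and richer in RNA, held 65.1% of its UMIs. Vegfa was at 37.2 CPM in blood endothelial-like and 25 CPM in fibroblast-like cells, which were not told apart, and fibroblast-like cells held 64.1% of its 387 UMIs. Vegfb, a ligand of VEGFR1, was at 43.2 CPM in lymphatic endothelial-like cells (15 UMIs) and lay between 13.5 and 14.4 CPM in the next 5 classes, none of which was told apart from its neighbour. Pgf was at 75 CPM in lymphatic endothelial-like cells (26 UMIs), at 26.9 CPM in blood endothelial-like cells (21 UMIs), at 17.3 CPM in pericyte or smooth muscle-like cells (27 UMIs) and at 8.57 CPM in fibroblast-like cells (85 UMIs). The levels in blood endothelial-like and mural cells did not differ beyond counting error, and B, T and NK-like cells together held 1 Pgf UMI in 562 cells.

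Genes with the most similar control profile over the 12 classes were named for 4 members by Pearson's correlation of log-scaled levels, as a description over 12 classes of 1 library. They were Gpr182 (0.99), Pcdhb19, Pcdhb20 and Pcdhb14 (0.98 each) and Foxc1 (0.97) for Pgf. For Kdr they were Efna1, Nxn, Stap2, Ablim3 and Chrnb1 (0.96 to 0.99), and for Flt4 they were Clca3a1, Tc2n, Dmtn, Trim62 and Hoxd9 (0.98 to 0.99). Vegfa had no such close neighbour, its nearest being Eif4g1 and Lpar4 (0.91 each), Dkk2 (0.90), Atp8b1 and Apln (0.89 each).

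Over all cells passing the filters, the KO library differed most from the control in Vegfa and Flt4. Vegfa was at 12.5 CPM in the control and 17.9 CPM in the KO (log2 ratio 0.52, 0.26 to 0.78), and Flt4 at 20.3 and 12.4 CPM (−0.72, −1.01 to −0.44). Vegfc was at 24 and 31.3 CPM (0.39, 0.19 to 0.58), Flt1 at 50.4 and 59.7 CPM (0.24, 0.11 to 0.38), Nrp2 at 70.6 and 58.8 CPM (−0.26, −0.40 to −0.13) and Nrp1 at 243 and 229 CPM (−0.09, −0.16 to −0.02). Intervals of Vegfb (0.18) and Pgf (−0.33) spanned 0, and that of Kdr (0.17) began at 0.00. These sums mix the level in each class with the number of cells recovered from it.

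Pgf in fibroblast-like cells was the difference for which the family was chosen. It was at 8.57 CPM (6.85 to 10.6) in the control, from 85 UMIs in 60 of 900 cells, and at 3.16 CPM (1.51 to 5.81) in the KO, from 10 UMIs in 2 of 238 cells. The log2 ratio was −1.44 (−2.55 to −0.49), 2.72-fold lower, and Pgf ranked 60 of 10634 genes from the lowest ratio up. Among those 10634 genes, each with 50 UMIs or more, 1.74% were 2-fold or more lower in the KO and 1.41% were higher by as much. Of the 9 members, 7 had 50 UMIs here, and Pgf was the 1 past 2-fold. Nothing is read from this rank or count, since the family was chosen for this value. Pgf also reached 50 UMIs only through the control library. The KO value rested on 1 cell with 9 UMIs, while no control cell held more than 7. Cells with at least 1 Pgf UMI made up 6.67% of control and 0.84% of KO fibroblast-like cells, at medians of 11623.5 and 14426 UMIs per cell, against 0.178% and 0% in T, B and NK-like cells at medians of 4181.5 and 5788. After thinning to 2000 UMIs per cell, which left out 91 and 25 shallower cells, Pgf was found in 1.73% (14 of 809) and 0.469% (1 of 213) of fibroblast-like cells, with overlapping intervals, and in 0 of 537 and 0 of 170 T, B and NK-like cells.

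The low Pgf count was uneven over fibroblast-like clusters, as the plot of Pgf by cluster shows. In the largest of these clusters, led by Fam150b, Bmper and Cxcl14 and low in the progenitor marker Pi16, 68 Pgf UMIs were found in 45 of 508 control cells and 0 in 118 KO cells. This was at least 7.3-fold lower in the KO (log2 −2.87 at the floor), where 1.98% of 9796 genes were at least 2-fold lower. Nothing is read from this share, since the family was chosen for low Pgf in KO fibroblasts. Over all fibroblast-like clusters low in Pi16 the bound was −2.91, and the ratio was −1.41 (−2.52 to −0.46) with a looser cell filter or coarser clustering. After thinning to 2000 UMIs per cell, with 0 KO UMIs, the bound was −0.10. When all fibroblast-like cells were clustered again, the sub-cluster led by Gatm, Mmd2 and Slc17a7 had the most Pgf in the control, with 42 UMIs in 23 of 87 cells (34.6 CPM), and 0 in 48 KO cells (at least 9.5-fold lower). It was singled out after its values were seen, met no naming rule of its own, and had the smooth muscle genes Myh11 and Lmod1 among its leading genes. The cluster led by Islr2, Pi16 and Ackr4 had 16 UMIs in 14 of 277 control cells and 10 in 2 of 70 KO cells. Its log2 ratio of 1.03 (−0.27 to 2.26) included 0. Whether the clusters differ from each other cannot be tested with 1 library per genotype. Summed endothelial markers were at 21.1 CPM in the fibroblast-like cells of both libraries, with Ecscr or Pecam1 the most abundant at 4.04 and 6.31 CPM and none of 8 at 0. Macrophage markers summed to 42.8 and 13.3 CPM, and their part in the result was not tested.

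**Figure D2:**
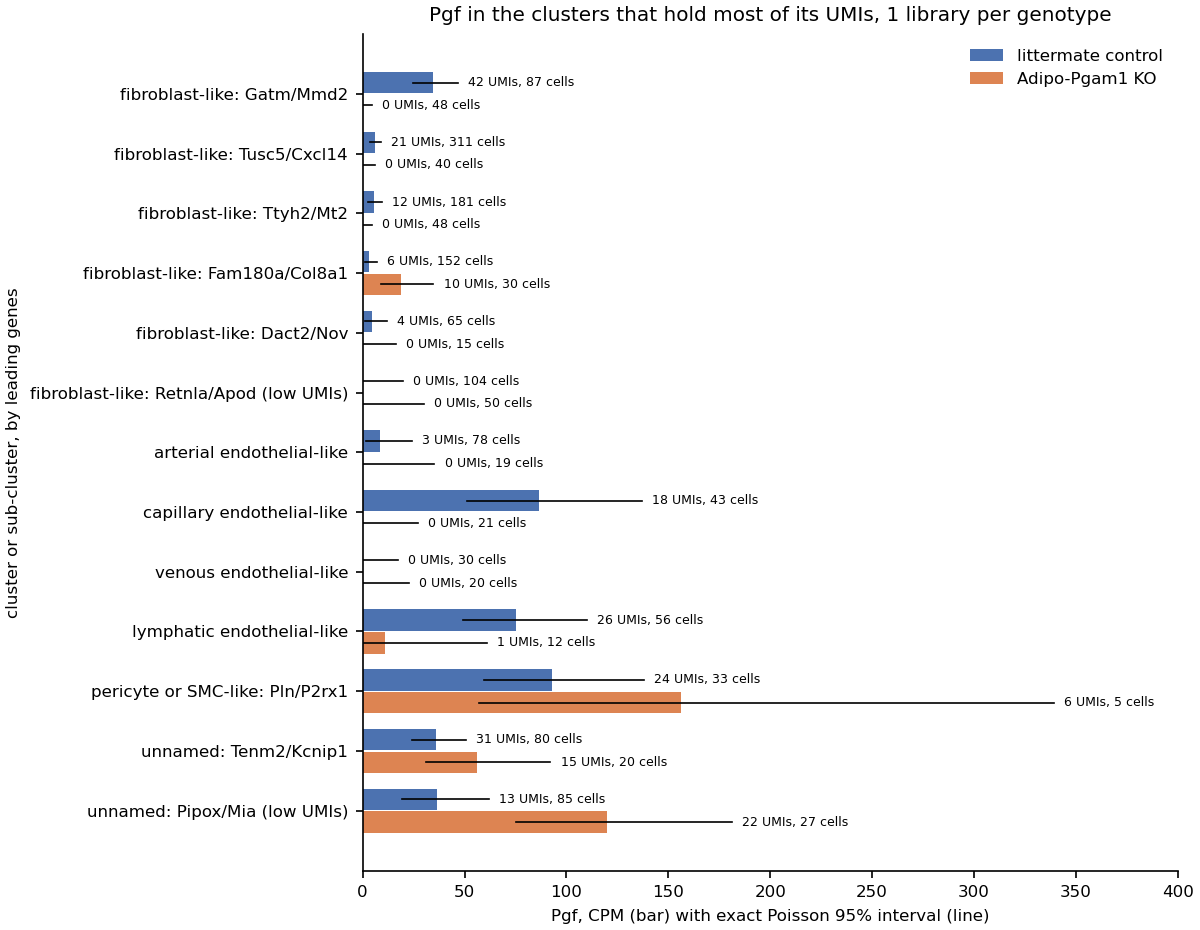
Pgf level in CPM (bars) with exact Poisson 95% intervals (lines) in the control and KO libraries, for fibroblast-like and endothelial-like sub-clusters and other clusters that held Pgf, named by leading genes. Pgf in the Gatm/Mmd2 sub-cluster of fibroblast-like cells is at 34.6 CPM in control and 0 in KO cells, while the unnamed Pipox/Mia cluster is at 36.3 and 120 CPM.

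Endothelial Pgf is given as a description, since the family was chosen with results of these libraries known. Blood endothelial-like cells held 21 Pgf UMIs in 7 of 151 control cells, 12 of them in 1 cell, and 0 in 60 KO cells. This gives at least 3.61-fold less (log2 −1.85 at the floor). Capillary-like cells accounted for 18 of these UMIs. Lymphatic endothelial-like cells held 26 Pgf UMIs in 13 of 56 control cells and 1 in 12 KO cells (−2.78, −8.14 to −0.17). In mural cells Pgf was at 17.3 CPM in the control and 31.9 CPM in the KO from 27 and 6 UMIs (0.88, −0.69 to 2.19). Their Pgf lay mostly in a sub-cluster led by Pln and P2rx1, at 92.8 and 156 CPM in 33 and 5 cells. An unnamed cluster led by Tenm2 and Kcnip1 had 35.8 and 55.9 CPM (0.64, −0.35 to 1.57). A second unnamed cluster, led by Pipox, Mia and Cuzd1 and poor in RNA with a median of 2153.5 UMIs per cell, had 13 UMIs in 8 of 85 control cells and 22 in 5 of 27 KO cells (1.72, 0.67 to 2.83). Unnamed clusters thus held 66.7% of the 57 Pgf UMIs of the KO library and 20.9% of 215 in the control.

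Vegfc had a higher summed level in KO than in control fibroblast-like cells. It was at 48.8 CPM in the control (484 UMIs) and 77.7 CPM in the KO (246 UMIs), a log2 ratio of 0.67 (0.44 to 0.89). In the Fam150b cluster it was at 47.9 and 94.5 CPM (0.98, 0.71 to 1.25) and in the Pi16 cluster at 49.4 and 47.5 CPM (−0.06, −0.54 to 0.40). Of the sub-clusters, that led by Fam180a and Col8a1 was lower in the KO, with 90.4 and 51 CPM (−0.83, −1.47 to −0.23), and that led by Dact2 held 12 control UMIs and 1 KO UMI (−1.66, −7.07 to 1.10). After thinning each cell to 2000 UMIs, the Vegfc ratio of fibroblast-like cells was 0.29 (−0.35 to 0.90), an interval that includes 0. Vegfa was at 25 and 32.8 CPM in fibroblast-like cells (0.39, 0.05 to 0.73). In the control its highest level among sub-clusters was in that led by Ttyh2, Mt2 and Tmtc2, at 51.3 CPM, with 46.8 CPM in the KO, and in the KO it was in that led by Dact2, at 53 CPM from 12 UMIs. In the Gatm sub-cluster Vegfa was at 16.5 and 35.2 CPM (1.09, 0.22 to 1.99). In the other sub-clusters found in both libraries its interval included 0. After the same thinning the Vegfa ratio of fibroblast-like cells was −0.14 (−1.24 to 0.83). Vegfb was at 13.9 and 15.2 CPM (0.12, −0.38 to 0.61).

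Vegfd, named Figf in the files, is the remaining VEGFR3 ligand and was not among the 9 members. It was at 242 CPM (2403 UMIs) in control and 172 CPM (546 UMIs) in KO fibroblast-like cells, a log2 ratio of −0.49 (−0.63 to −0.36). Vegfc and Vegfd, which share a receptor, had ratios of opposite sign over the whole class but not in every sub-cluster. In the Gatm sub-cluster, in which the KO held 0 Pgf UMIs, Vegfd was at 394 and 200 CPM (−0.98, −1.24 to −0.72) and Vegfc at 89.7 and 154 CPM (0.78, 0.40 to 1.16). In the Fam180a sub-cluster both were below 0 (Vegfd −0.86, −1.20 to −0.55; Vegfc −0.83), in the Ttyh2 sub-cluster both were above it (0.20, −0.10 to 0.49, and 0.75, 0.07 to 1.41), and in the Dact2 sub-cluster Vegfd was at 0.60 (0.12 to 1.05) and Vegfc at −1.66.

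The neuropilins, which VEGF shares with semaphorins, were the receptors with many UMIs in fibroblast-like cells. Nrp1 was at 228 and 321 CPM in control and KO (0.49, 0.39 to 0.60), and Nrp2 at 47.5 and 46.4 CPM (−0.03, −0.31 to 0.24). The Nrp1 difference was present in both the Fam150b cluster (0.51) and the Pi16 cluster (0.48), but the mix of fibroblast-like cells differed, since the Gatm sub-cluster, with the highest Nrp1 level of those found in both libraries (468 and 562 CPM), made up 87 of 900 control and 48 of 238 KO cells. A sub-cluster of 7 cells with Schwann markers, all from the KO, had 713 CPM. Within the sub-clusters found in both libraries the Nrp1 ratio was 0.49 (Tusc5), 0.39 (Ttyh2) and 0.26 (Gatm) with intervals above 0, and −0.29 (Fam180a), −0.40 (Retnla) and −0.18 (Dact2) with intervals that included 0. Kdr was at 9.48 and 8.84 CPM, and 74 of its 94 control UMIs lay in 18 cells of the Fam180a sub-cluster. Flt1 and Flt4 were at 2.93 and 0.807 CPM in the control and 1.26 and 0.631 CPM in the KO, with 4 and 2 UMIs in the KO.

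**Figure D3:**
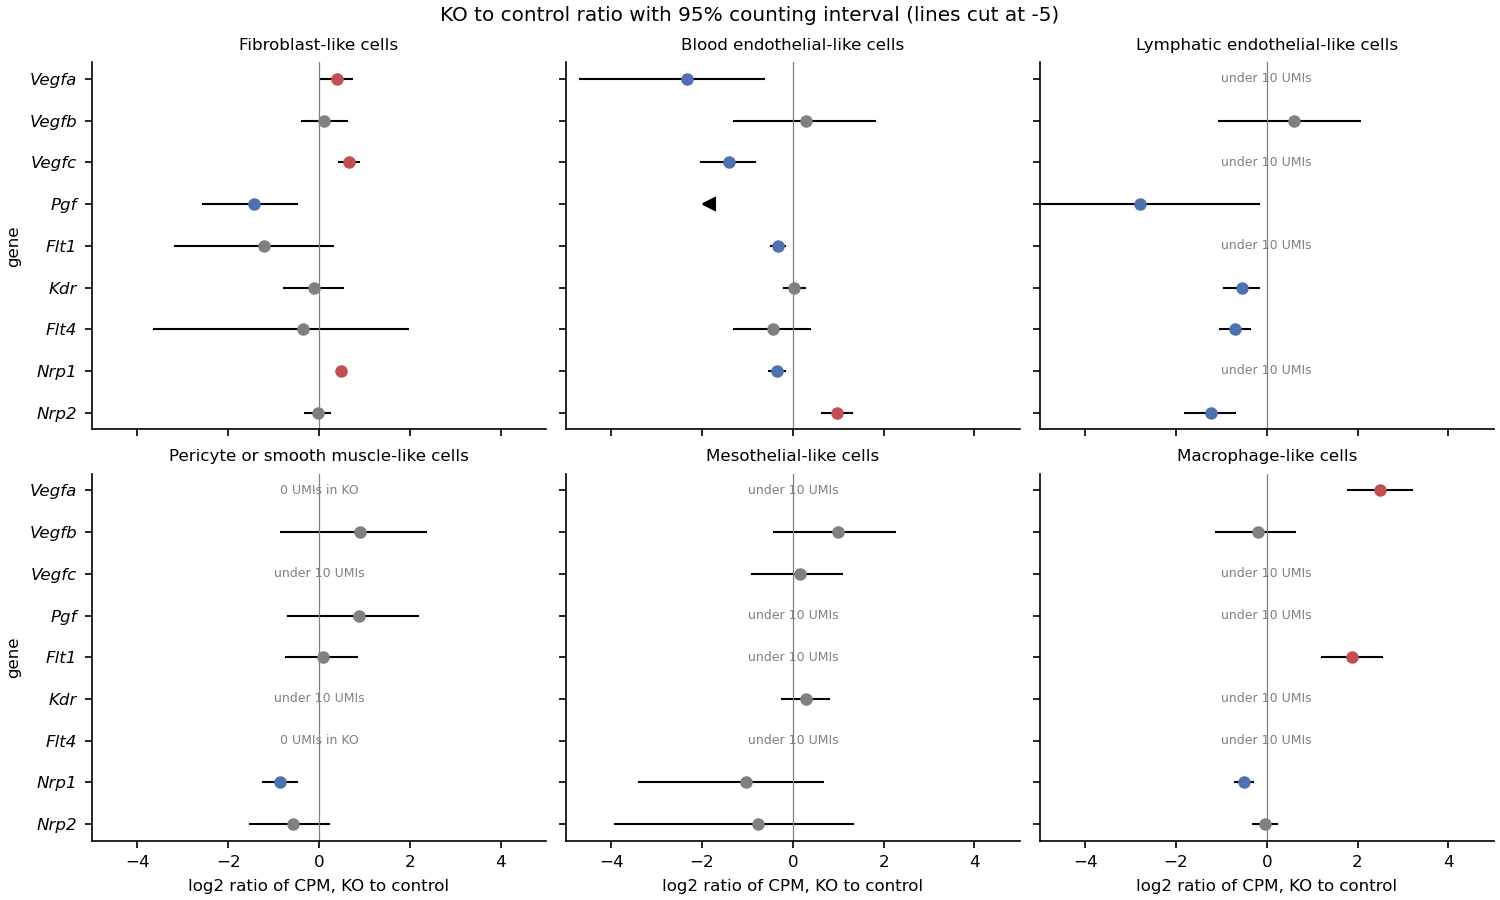
Log2 ratio of CPM, KO to control, of each gene in 6 cell classes, with exact 95% counting intervals (lines, cut at −5), in red where the interval lies above 0, in blue where below 0 and in grey where it includes 0. The triangle is an upper bound where the KO library held 0 UMIs, as for Pgf at −1.85 in blood endothelial-like cells.

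In blood endothelial-like cells Kdr was close in both libraries, Flt1, Nrp1 and Vegfc were lower in the KO, and Nrp2 was higher. Kdr was at 569 and 581 CPM (0.03, −0.20 to 0.26), Flt1 at 1528.5 and 1223.5 CPM (−0.32, −0.48 to −0.17) and Nrp1 at 1230 and 970 CPM (−0.34, −0.52 to −0.17). Nrp2 was at 191 CPM in the control and 375 CPM in the KO (0.97, 0.64 to 1.31). Flt4, with 47 and 18 UMIs, was at 60.2 and 44.7 CPM (−0.43, −1.30 to 0.38). Vegfc was at 197 and 74.5 CPM (−1.41, −2.02 to −0.83), and it was the 1 member at least 2-fold lower of 6 with 50 UMIs, where 3.49% of 4180 genes were lower and 1.46% higher by that much. With 154 and 30 UMIs, Vegfc reached 50 only through the control library, so nothing is read from this count. Vegfa was at 37.2 CPM from 29 UMIs in 21 control cells and at 7.45 CPM from 3 UMIs in 2 KO cells (−2.32, −4.68 to −0.63). When cells with as few as 200 genes and up to 20% mitochondrial UMIs were admitted, the class so named held 180 control and 84 KO cells. The Vegfc ratio in it was 0.64 (−0.62 to 1.89), an interval that includes 0. The mix of vessel types was not checked under this filter, so this ratio need not describe the same cells.

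These class values mix vessel types in unequal parts. Arterial-like cells, led by Gkn3 and Gja5, were 78 of 151 control and 19 of 60 KO cells. Capillary-like cells, with Car4, were 43 and 21, and venous-like cells, led by Selp and Lrg1, were 30 and 20. Vegfc was nearly all arterial in the control, with 141 of 154 UMIs. In the KO 20 of 30 Vegfc UMIs were arterial and 8 venous. Within arterial-like cells Vegfc was at 391 and 191 CPM (−1.04, −1.79 to −0.35), and within venous-like cells at 33 and 49.2 CPM (0.58, −1.08 to 2.27). Vegfa was also arterial, with 27 of 29 control UMIs. Within arterial-like cells it was at 75 and 28.6 CPM from 27 and 3 UMIs (−1.39, −3.75 to 0.31), an interval that includes 0. Nrp2 was barely detected in arterial-like cells at this depth, with 2 and 0 UMIs, and was at 346 and 295 CPM in capillary-like cells (−0.23, −0.83 to 0.35) and at 354 and 683 CPM in venous-like cells (0.95, 0.51 to 1.39).

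Kdr, the main signalling receptor for VEGF-A, had different ratios in the 3 vessel types although its class values were close. In capillary-like cells it was at 1066.6 CPM in the control and 1231.4 CPM in the KO (0.21, −0.09 to 0.50). In venous-like cells it was at 811 and 400 CPM (−1.02, −1.45 to −0.60), and in arterial-like cells at 139 and 19.1 CPM from 50 and 2 UMIs (−2.86, −5.95 to −0.93). Genes 2-fold or more lower in the KO made up 7.95% of 1685 genes in arterial-like and 2.74% of 1241 genes in venous-like cells, and so did 2 of 4 members in the former (Vegfc, Kdr) and 1 of 4 in the latter (Kdr). Arterial Vegfc and Kdr reached 50 UMIs only through the control library, so nothing is read from their place in this count. In capillary-like cells 0 of 4 members were past 2-fold, beside 3.36% of genes lower and 3.11% higher. Flt1 and Nrp1 had ratios below 0 in all 3 vessel types, from −0.60 (arterial) to −0.23 (capillary) for Flt1 and from −0.74 (venous) to −0.32 (capillary) for Nrp1. Of these 6 intervals, that of capillary Flt1 (−0.55 to 0.09) and that of arterial Nrp1 (−0.73 to 0.04) included 0.

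**Figure D4:**
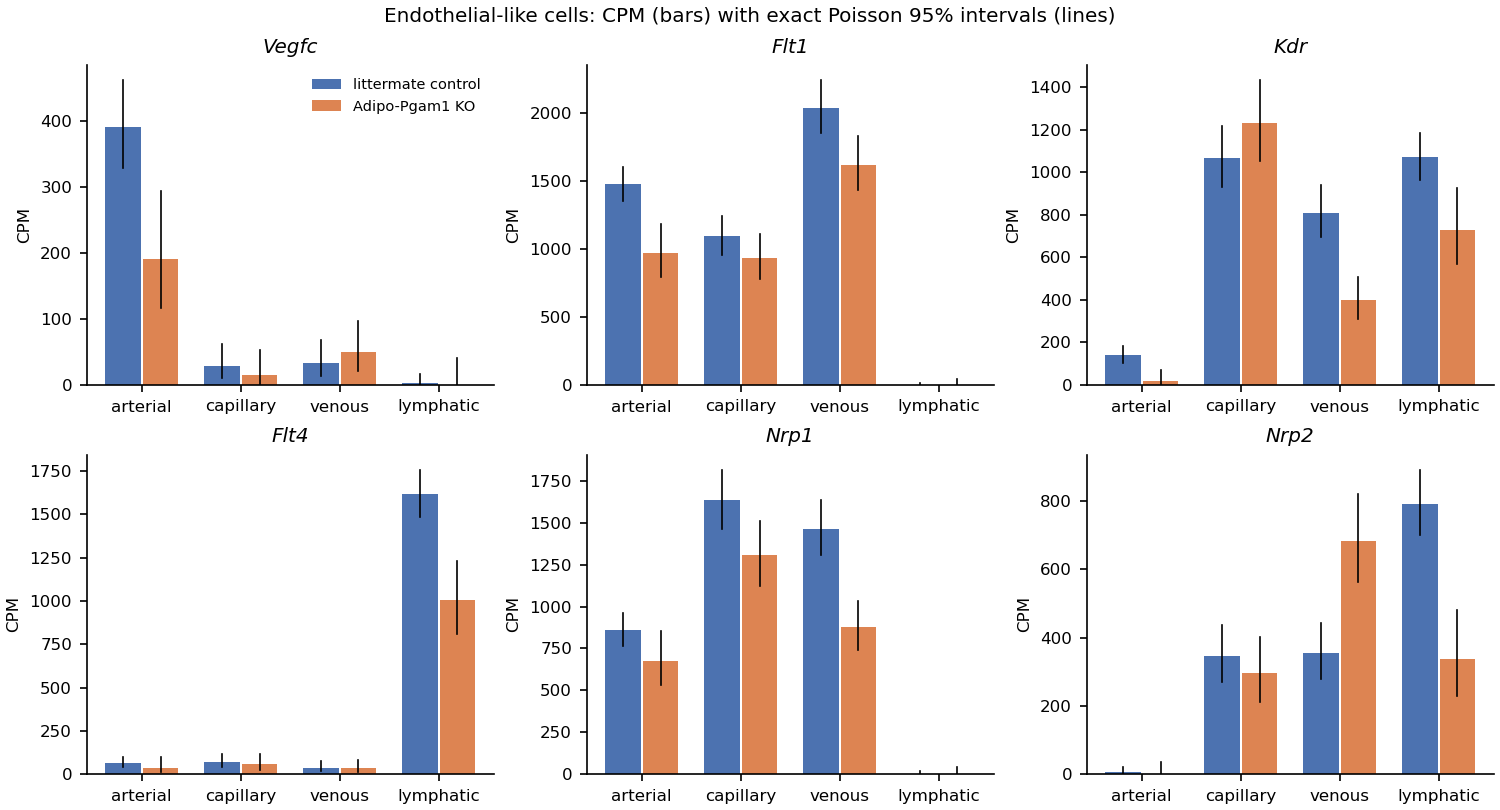
Level in CPM (bars) with exact Poisson 95% intervals (lines) of 6 genes in arterial, capillary, venous and lymphatic endothelial-like cells of the control and KO libraries. Vegfc is mainly arterial (391 and 191 CPM), Flt4 lymphatic (1617.4 and 1004.3 CPM), and venous Kdr (811 and 400 CPM) and Nrp2 (354 and 683 CPM) differ in opposite directions.

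Lymphatic endothelial-like cells had lower levels of their 3 main receptors in the KO library, which held 12 such cells. Flt4 was at 1617.4 and 1004.3 CPM (−0.69, −1.02 to −0.37), Kdr at 1072.5 and 731 CPM (−0.55, −0.95 to −0.17) and Nrp2 at 793 and 338 CPM (−1.23, −1.81 to −0.69). Nrp2 was past 2-fold, among 1574 genes of which 8.51% were lower and 2.86% higher to that extent. Vegfb was at 43.2 and 65.5 CPM from 15 and 6 UMIs (0.60, −1.05 to 2.05).

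Macrophage-like cells held Vegfa and Flt1 at higher summed levels in the KO, but in few cells and not under every cell filter. Vegfa was at 5.75 CPM from 36 UMIs in 16 of 650 control cells and at 32.5 CPM from 36 UMIs in 6 of 95 KO cells (2.50, 1.79 to 3.20), with 18 UMIs in 1 KO cell. Flt1 was at 8.31 CPM from 52 UMIs in 29 control cells and at 30.7 CPM from 34 UMIs in 5 KO cells (1.88, 1.22 to 2.54), with 22 UMIs in 1 cell. These were the 2 members past 2-fold of 5 with 50 UMIs, where 1.64% of 8779 genes were higher and 5.01% lower to that extent. All of these KO UMIs lay in the macrophage-like cluster led by Lyz1, Slc13a3 and Ear2, 64 of the 95 KO cells. Without the 5 cells richest in the gene in each library, the ratios were −0.89 (−6.32 to 1.89) for Vegfa and at most −0.88, against 0 KO UMIs, for Flt1. With the looser cell filter (200 genes, 20% mitochondrial UMIs) and with the stricter one (1000 genes, 5%), the cells named macrophage-like held 15 and 7 control UMIs of Flt1 against 0 KO UMIs, too few for a bound. The Vegfa ratio was 0.97 (−4.59 to 4.13) with the looser filter and 3.93 (1.13 to 7.40) with thinned cells. Nrp1 rested on more cells, with 2009 and 253 UMIs, at 321 and 228 CPM (−0.49, −0.69 to −0.30), but the cluster led by Cd209f and Cd209g, which was the richer in Nrp1, made up 353 of 650 control and 31 of 95 KO cells. Within it Nrp1 was at 678 and 600 CPM (−0.18, −0.41 to 0.05), and within the Lyz1 cluster at 92.9 and 94.4 CPM (0.02, −0.35 to 0.38). Nrp2 was at 129 and 125 CPM in the class (−0.04, −0.31 to 0.22), at −0.59 (−1.14 to −0.09) in the Cd209f cluster and at 0.36 (0.04 to 0.68) in the Lyz1 cluster. Endothelial markers summed to 27 and 46 CPM in these cells, the most abundant in the KO being Pecam1 at 26.2 CPM, and their part in the Flt1 values was not tested.

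In mural and mesothelial cells 0 of 3 and 0 of 2 members with 50 UMIs were past 2-fold, beside 11.3% and 4.22% of genes that were lower and 3.06% and 1.26% that were higher. Flt1 of pericyte or smooth muscle-like cells was at 84 and 90.3 CPM (0.10, −0.72 to 0.84), and 122 of its 131 control UMIs lay in a sub-cluster led by Actg2 and Colec11. This ratio was not stable, lying between −1.24 (a bound, without the 5 cells of each library richest in Flt1) and 3.92 (with a stricter cell filter) in 11 alternatives. Nrp1 was at 624 and 345 CPM (−0.85, −1.24 to −0.49) in 218 and 21 cells. The cluster led by Gipr and Lrrc4c, 1 of the 2 in this class, held 126 control and 7 KO cells, so that the mix of mural cells was not the same. Within sub-clusters Nrp1 was at 923 and 544 CPM (−0.76, −1.46 to −0.14) in that led by Cd300lg and Dapk2 with 129 and 10 cells, at 390 and 369 CPM (−0.08, −0.60 to 0.41) in the Actg2 sub-cluster, and at 170 and 77.8 CPM (−1.13, −3.46 to 0.51) in the Pln sub-cluster. In mesothelial-like cells, Kdr was at 115 and 141 CPM (0.29, −0.23 to 0.79), Vegfc at 36.3 and 40.4 CPM (0.15, −0.89 to 1.08) and Vegfb at 13.5 and 26.9 CPM from 19 and 8 UMIs. The Kdr ratio was −1.69 (−3.33 to −0.43) without the 5 cells of each library richest in Kdr and −1.10 (−4.23 to 0.91) after thinning.

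Monocyte-like cells had Flt1, a receptor through which PlGF and VEGF-A draw monocytes, at 69.1 and 55 CPM (−0.33, −1.19 to 0.47), and Nrp1 at 121 and 122 CPM (0.01, −0.56 to 0.57). Dendritic-like cells had Nrp1 at 101 and 88.8 CPM and Nrp2 at 56.1 and 42.9 CPM, and their Flt1 was at 28 and 2 UMIs (−2.17, −5.28 to −0.18). T-like cells had Nrp1 at 76.6 and 44.1 CPM (−0.79, −1.52 to −0.11). Vegfa of ILC2-like cells rested on 4 control and 9 KO UMIs.

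The next comparison concerns genes known to be induced by VEGF in endothelium, in blood endothelial-like cells. Of 17 listed genes, 14 had at least 10 UMIs, and 5 were lower by 2-fold or more and 0 higher, beside 8.44% lower and 3.69% higher among 9101 genes. Their median log2 ratio was −0.66 and that of all genes −0.14. Of the 5 lower genes, Esm1, Cxcr4, Hlx and Angpt2 reached 10 UMIs only through the control library, so nothing is read from this count. Igfbp3, which codes for a binding protein of insulin-like growth factors, was at 728 and 199 CPM (−1.87, −2.23 to −1.53), and its ratio lay between −4.83 (with a stricter cell filter) and −1.34 (each cell given the same weight) in 14 alternatives. Esm1, a marker of tip cells, was at 47.4 and 9.93 CPM (−2.26, −4.21 to −0.78), Cxcr4 at 44.8 and 14.9 CPM (−1.59, −3.13 to −0.33), Hlx at 39.7 and 17.4 CPM (−1.19, −2.62 to 0.02), and Angpt2, an antagonist of the Tie2 receptor, at 17.9 CPM from 14 UMIs against 0 in the KO. Dll4, the Notch ligand, was at 238 and 154 CPM (−0.63, −1.07 to −0.21), Pdgfb, which recruits pericytes, at 391 and 236 CPM (−0.73, −1.08 to −0.39), and Aplnr at 204 and 171 CPM (−0.25, −0.68 to 0.17). Nr4a2 (0.11, −0.50 to 0.71) and Rcan1 (0.28, from 16 and 10 UMIs) had ratios above 0, with intervals that included it.

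Markers of mural cells summed to 632 and 422 CPM in blood endothelial-like cells, led by Rgs5 and Tagln, and those of macrophages to 136 and 29.8 CPM, led by C1qa and Cd68, and their part in these values was not tested.

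Ratios of this list differed in size between vessel types, which was not tested. Igfbp3 was lower in the KO within arterial-like (−0.78), capillary-like (−2.51) and venous-like cells (−4.38, −6.29 to −2.99), the last from 109 and 4 UMIs. Dll4 was at 380 and 382 CPM in arterial-like and at 159 and 155 CPM in capillary-like cells, and at 75.4 and 6.15 CPM in venous-like cells from 16 UMIs and 1 UMI (−3.62, −9.01 to −0.93). Esm1 had at least 10 UMIs in venous-like cells alone, at 132 and 24.6 CPM (−2.42, −4.40 to −0.91). Of the other listed genes in venous-like cells, Hlx was at −2.20 (−4.61 to −0.43), Pdgfb at −1.37 (−2.19 to −0.61), Aplnr at −0.30 (−0.87 to 0.25) and Rcan1 at 0.80 (−0.92 to 2.60). The immediate early genes Nr4a1 and Nr4a2 were at 0.51 (−0.21 to 1.24) and 0.72 (−0.21 to 1.67) in venous-like cells and at −1.18 (−2.24 to −0.27) and −0.63 (−1.85 to 0.41) in arterial-like cells. In capillary-like cells Aplnr was at 404 and 170 CPM (−1.25, −1.98 to −0.57), and Nr4a1 was at −0.80 from 8 and 3 UMIs.

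**Figure D5:**
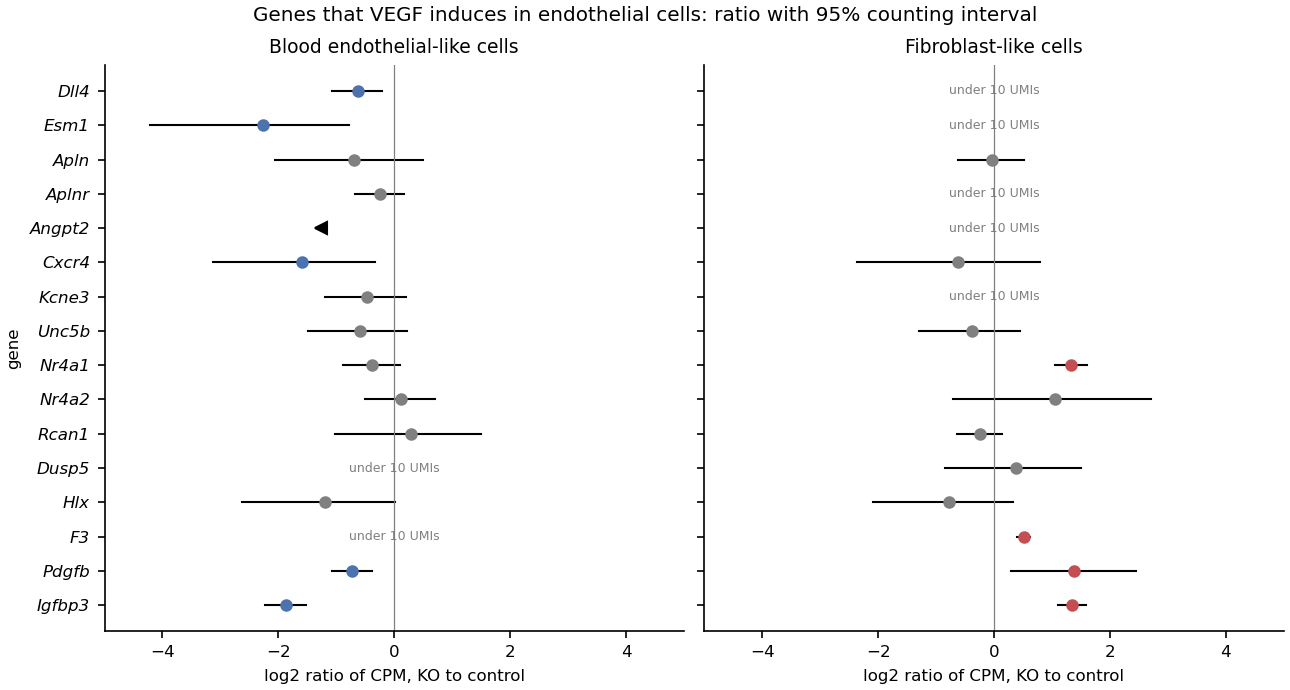
Log2 ratio of CPM, KO to control, of listed genes that VEGF induces in endothelial cells, in blood endothelial-like and fibroblast-like cells, with exact 95% counting intervals in red above 0, blue below 0 and grey where 0 is included. In blood endothelial-like cells the median is −0.66 and 5 genes are at least 2-fold lower, and the triangle is an upper bound against 0 KO UMIs.

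In fibroblast-like cells the same list had 11 genes with at least 10 UMIs, of which 4 were higher by 2-fold or more and 0 lower, beside 3.94% and 3.34% of 12874 genes, and a median of 0.38 against −0.09. Nr4a1 was at 25.1 and 63.1 CPM (1.33, 1.05 to 1.60) and Igfbp3 at 33.1 and 84 CPM (1.34, 1.10 to 1.58). F3, tissue factor, was at 202 and 288 CPM (0.51, 0.40 to 0.62). Pdgfb (1.38) and Nr4a2 (1.06) had 15 and 6 KO UMIs. The KO fibroblast-like cells included 7 cells with at least 3 of 6 Schwann markers, against 1 such cell in the control. Without these cells Pdgfb was at −0.92 (−3.33 to 0.86) and Nr4a2 at 0.50, whereas Nr4a1 (1.31) and Igfbp3 (1.36) were as before, as was Pgf (−1.42).

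Angiogenic factors beyond the VEGF family differed in both directions in fibroblast-like cells. Among 14 measured ligands, 3 were past 2-fold higher and 0 lower, with a median of 0.30, beside 3.94% and 3.34% of all genes, and in blood endothelial-like cells 1 of 6 was higher (Ptn, 3.48) and 0 lower, with a median of −0.19, beside 3.69% and 8.44%. The same shares of all genes stand beside the counts of the lists that follow. Mdk, midkine, was at 9.78 and 30.9 CPM (1.66, 1.24 to 2.08). Ptn (3.79) and Pdgfa (2.31) were at 1.48 and 0.59 without the cells with Schwann markers. Cxcl12, a chemokine that attracts endothelial and bone marrow cells, was at 233 and 393 CPM (0.76, 0.66 to 0.86), and Ccbe1, which promotes the processing of VEGF-C, at 63.6 and 84.9 CPM (0.42, 0.21 to 0.63). Of 11 measured inhibitors of angiogenesis, 2 were past 2-fold lower and 1 higher, with a median of −0.00, beside 3.34% and 3.94% of all genes. Thbs1, thrombospondin 1, was at 147 CPM (1455 UMIs) in the control and 40.4 CPM (128 UMIs) in the KO (−1.86, −2.13 to −1.60), Pf4 was at 15.6 and 5.68 CPM (−1.46, −2.25 to −0.75), and Tnmd at 3.13 and 8.21 CPM (1.39, 0.58 to 2.19). Pf4 is a product of macrophages and platelets. Macrophage markers summed to 42.8 and 13.3 CPM in these cells, and their part in the Pf4 values was not tested. In blood endothelial-like cells 1 of 7 inhibitors was lower (Pf4, −2.67) and 1 higher (Thbs1, 1.20), with a median of −0.06.

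Genes of oxygen sensing and HIF targets, a pathway that governs Vegfa in many cells, went both ways in fibroblast-like cells. Of 8 measured sensors 0 were past 2-fold, with a median of −0.23, and likewise 0 of 16 HIF targets, with a median of 0.06, beside 3.34% of all genes lower and 3.94% higher. Hif1a was at 84.7 and 65 CPM (−0.38, −0.61 to −0.16) and Epas1 at 122 and 121 CPM (−0.01, −0.18 to 0.16). Vhl, which marks HIF for degradation, was at 25.2 and 16.4 CPM (−0.62, −1.08 to −0.18). Among targets, Adm, adrenomedullin, was at 231 and 369 CPM (0.67, 0.57 to 0.78), Pgk1, a glycolytic enzyme, at 4.54 and 8.84 CPM (0.96, 0.23 to 1.67) and Ndrg1 at 75.2 and 46.4 CPM (−0.70, −0.96 to −0.44). In blood endothelial-like cells, 0 of 7 sensors (median −0.06) and 1 of 15 targets (median −0.16) were past 2-fold, beside 8.44% of all genes lower and 3.69% higher, the 1 being Slc2a1, a glucose transporter, at 25.6 and 57.1 CPM (1.16, 0.23 to 2.10).

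In the remaining pathway lists few genes were past 2-fold, to be read beside 3.34% of all genes lower and 3.94% higher in fibroblast-like cells and 8.44% and 3.69% in blood endothelial-like cells. Of 18 measured signalling genes downstream of the receptors in fibroblast-like cells, 1 was past 2-fold lower and 0 higher (median −0.11), the 1 being Prkcb with 22 and 3 UMIs, and Fyn was at 212 and 131 CPM (−0.70, −0.85 to −0.54). In blood endothelial-like cells, with a median of −0.14, 1 of 16 was lower (Gipc1, −1.05, −2.82 to 0.41) and 1 higher (Shb, 1.12, −0.42 to 2.70), and Cdh5, VE-cadherin, was at 1335 and 1335.1 CPM. Of the angiopoietin and Tie genes, 0 of 5 were past 2-fold in fibroblast-like cells (median −0.18), and 1 of 4 was lower (Angpt2) and 1 higher in blood endothelial-like cells (median 0.08). The latter was Angptl4, an inhibitor of lipoprotein lipase, at 191 and 583 CPM in blood endothelial-like cells (1.61, 1.31 to 1.92), at 370 and 1268.3 CPM within capillary-like cells (1.78, 1.38 to 2.18), at 151 and 338 CPM within venous-like cells (1.16, 0.51 to 1.84) and at 111 and 76.4 CPM within arterial-like cells (−0.54, −1.85 to 0.58). In fibroblast-like cells it was at 335 and 416 CPM (0.31, 0.22 to 0.41), and Tek, the Tie2 receptor, was at 99.7 and 54.6 CPM (−0.87, −1.11 to −0.63). Of the remaining ligands and co-receptors, mostly semaphorins and plexins, 1 of 13 was past 2-fold lower in fibroblast-like cells (Plxna4, median −0.17) and 1 of 7 in blood endothelial-like cells (Plxna1, median 0.08), and 0 were higher. Sema3c was at 139 and 92.2 CPM in fibroblast-like cells (−0.59, −0.78 to −0.41), Plxna4 at 6.46 and 2.53 CPM (−1.35, −2.63 to −0.29), Plxna1 at 28.2 and 7.45 CPM in blood endothelial-like cells (−1.92, −4.30 to −0.19), and Sema3g at 889 and 598 CPM there (−0.57, −0.79 to −0.36).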

How the data were processed

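SVF cells were profiled with 10x Genomics 3′ v3 chemistry. The authors aligned reads and counted UMIs per gene and barcode with Cell Ranger 3.0.1 (build mm10, per the labels), and deposited the raw UMI counts, which total 42859406 for the control library and 13821581 for the KO library. Members, gene lists and comparisons were chosen with earlier results of these data known. Doublets were removed by Scrublet score in scanpy 1.11.5, in a share of 0.8% per 1000 barcodes. Clustering used 2000 variable genes without the members and Pgam1, 30 principal components, 20 neighbours and Leiden 0.10.2 at resolution 0.5. A cluster was named when its mean z-score over a class's markers exceeded 0.5 and the next class by 0.75, with at least 3 markers in 10% of its cells and no more markers of another class among its top 10 genes. This rule was settled in part with the data in view, so class sizes may differ from those of the study. Sub-clusters were made likewise within a class. Genes named are the members, Pgam1, the 5 most similar genes of 4 members (log2 of CPM + 10), and, from the lists, genes among the 4 with most UMIs or past 2-fold with at least 10 UMIs (Vhl, Pgk1, Ndrg1, Nr4a2 and Rcan1 were chosen after their values were seen). Intervals are exact Poisson (CPM), Clopper-Pearson (shares) and conditional binomial (ratios), computed with scipy 1.17.1. Counts under 3 were set to 3 when genes past 2-fold were counted. edgeR 4.0.16 gave TMM factors as an alternative. The calculations were tested on simulated data. Promoter windows are from RefSeq (9 of 9 members matched).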

Additional observations from a re-analysis of the deposited data

Results flagged for a closer look

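Several members had a KO to control ratio whose counting interval lay above 0 in one group of cells and below 0 in another. These differences between groups were not tested, since each genotype had 1 library. Ratios with at least 10 UMIs over both libraries are given, which leaves out Flt4 in dendritic-like cells (3.64, 0.30 to 9.26, from 1 and 4 UMIs) beside −0.69 in lymphatic endothelial-like cells. For Vegfa the log2 ratio was −2.32 in blood endothelial-like cells but 0.39 in fibroblast-like, 2.15 in ILC2-like (4 and 9 UMIs) and 2.50 in macrophage-like cells. Within arterial-like cells, the main holders of endothelial Vegfa, its interval included 0 (−1.39, −3.75 to 0.31). For Vegfc the log2 ratio was −1.41 in blood endothelial-like and 0.67 in fibroblast-like cells. Within fibroblast-like cells Vegfc was at −0.83 in the sub-cluster led by Fam180a and Col8a1, and at 1.07, 0.75 and 0.78 in those led by Tusc5, Ttyh2 and Gatm.

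For Pgf the ratio was −1.44 in fibroblast-like, −1.85 or lower in blood endothelial-like and −2.78 in lymphatic endothelial-like cells, and 1.72 in the unnamed cluster led by Pipox and Mia. Within fibroblast-like cells Pgf was at −3.25 or lower in the Gatm sub-cluster and 2.57 in the Fam180a sub-cluster, where 2 KO cells held its 10 UMIs. Flt1 was at −0.32 in blood endothelial-like, −2.17 in dendritic-like and 1.88 in macrophage-like cells. The macrophage-like ratio was at most −0.88 without the 5 cells of each library richest in Flt1. Nrp1 was at −0.34 in blood endothelial-like, −0.49 in macrophage-like, −0.85 in pericyte or smooth muscle-like and −0.79 in T-like cells, but at 0.49 in fibroblast-like cells and 2.34 in the Pipox cluster (5 and 13 UMIs). Within each macrophage-like cluster, however, the Nrp1 interval allowed for equal levels. Nrp2 was at −1.23 in lymphatic and 0.97 in blood endothelial-like cells.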

How the results depend on the processing

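Of 344 ratios recomputed under 16 alternatives (13 planned, 3 chosen after seeing the data), 308 stayed within the counting interval of the value in the report, 32 left it and 4 turned a ratio whose own interval excluded 0, and the causes were not tested. Pgf in fibroblast-like cells lay between −2.75 and −0.98 in 14 alternatives. The lowest is an upper bound without the 5 cells of each library richest in Pgf, which left 0 KO UMIs, and the highest, with thinned cells, had an interval that spanned 0.

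The 4 were Vegfc in blood endothelial-like cells at 0.64 with the looser filter (200 genes, 20% mitochondrial UMIs), Vegfa in fibroblast-like cells at −0.14 with thinned cells, and Vegfa at −0.89 and Flt1 at −0.88 (a bound) in macrophage-like cells without the 5 richest cells. The mix of vessel types among blood endothelial-like cells was not checked under the looser filter. The sign differed in 9 more, all of ratios whose own interval included 0: Kdr in blood endothelial-like (3, down to −0.04) and mesothelial-like cells (2, down to −1.69), Flt1 in mural cells (3, down to −1.24) and Vegfb in lymphatic endothelial-like cells (1, at −0.24). In blood endothelial-like cells, the stricter filter (1000 genes, 5%) gave −3.09 for Vegfc and −0.73 for Nrp1, the looser filter −0.09 for Flt1, and leaving out the 5 richest cells −2.14 for Vegfc and −0.49 for Flt1. In lymphatic endothelial-like cells without the 5 richest cells, Kdr was at −1.12, Flt4 at −1.10 and Nrp2 at −2.00. Genes past 2-fold lower in fibroblast-like cells numbered 185 with at least 50 UMIs, 429 with 20 and 94 with 100, and those past 2-fold higher 150, 297 and 88. TMM and median-of-ratios scaling shifted the classes by at most 0.10. In 11 cases the KO library held 0 UMIs and too few cells for a bound.

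No paired analysis was possible because each genotype had 1 library. The number of KO cells limits the ratios in lymphatic endothelial-like (12), mesothelial-like (20) and mural cells (21), among others.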
